A study of Homo sapiens with 6 samples.

Results

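Homologous recombination repairs DNA double-strand breaks by copying an undamaged sister chromatid. The broken ends are first cut back to single strands, a recombinase filament is loaded by BRCA2 and its partners, and the filament invades the matching sequence. The Fanconi proteins sense and open crosslinks between DNA strands and pass the resulting breaks to recombination, while ATM and ATR signal the damage to the cell cycle through CHEK2 and CHEK1. PARP1 and PARP2 act on single-strand lesions, and cells without working BRCA1 or BRCA2 depend on them and on end joining by polymerase theta, which is why BRCA1-mutant breast cancers are treated with PARP inhibitors. The 39 genes of these pathways described here were named by symbol among the 37887 rows of an RNA-seq count table. They were chosen with earlier results of these data known.

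RNA came from MDA-MB-436 cells, an established triple-negative breast cancer line that carries a BRCA1 mutation, engineered to express an shRNA to MUC1 from a tetracycline-inducible promoter. They received 0.1% DMSO vehicle (control, n = 3) or with 500 ng/ml doxycycline, which switches on the hairpin (shMUC1, n = 3). The sample titles name the first group a control shRNA, whereas the treatment labels give vehicle on the same inducible line, and vehicle is the reading adopted here. A control hairpin with doxycycline was not analysed, so MUC1 silencing and doxycycline itself cannot be told apart. How long this line was treated is not in the labels.

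The 6 libraries held between 18678307 and 27825546 counts. MUC1 itself was at 4.24, 3.45 and 3.95 counts per 1000000 counts (CPM) in control and 2.61, 1.98 and 1.83 CPM in shMUC1 libraries, a log2 fold change of -0.84 (SE 0.214, adjusted p = 0.00119). All adjusted p values here are from the quasi-likelihood test of edgeR, Benjamini-Hochberg corrected over every tested gene. Every shMUC1 library lay below every control library for MUC1, although its transcript is scarce in this line. The mesenchymal type of the line was present in both groups, with VIM, ZEB1, SPARC and CDH2 summing to between 872 and 928 CPM in control and between 535 and 596 CPM in shMUC1 libraries, and all 4 were lower in shMUC1 cells. The estrogen and progesterone receptor genes ESR1 and PGR had no more than 12 and 4 counts in any library, and the receptor gene ERBB2 fell by 0.20 on the log2 scale. The 3 summed to between 42.9 and 47.6 CPM in control and between 39.1 and 39.6 CPM in shMUC1 libraries. Of 6 epithelial markers EPCAM and CDH1 rose, while KRT19, GRHL2 and RAB25 were at 0 in every shMUC1 library. ESRP1 had too few counts to be tested. All 6 summed to between 3.28 and 4.48 CPM in control and between 19.8 and 21.4 CPM in shMUC1 libraries. Of 5 immune cell markers PTPRC and CD14 rose, CD3E and MS4A1 were at 0 throughout, and CD68 had too few counts to be tested. All 5 summed to between 3.28 and 3.60 CPM in control and between 5.97 and 9.24 CPM in shMUC1 libraries. Of 5 fibroblast genes COL1A2, DCN and LUM were at 0 in all 6 libraries, COL1A1 fell by 0.60 on the log2 scale and PDGFRB had a log2 fold change of -0.81 and did not pass the test, with a summed level of 3.24 to 5.27 CPM in control and 2.21 to 3.11 CPM in shMUC1 libraries. The share of counts from mitochondrially encoded genes was 3.74% ± 0.415 in control and 5.10% ± 0.139 in shMUC1 libraries (SD, n = 3 each). The part of these shifts in the results on repair genes was not tested.

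Silencing of MUC1 was accompanied by small changes in opposite directions within the repair pathways. Of the 39 genes, 38 passed the filter on low counts, 12 of them were higher and 8 lower in shMUC1 cells at an adjusted p under 0.05, and 18 did not pass the test. That is 52.6% of those tested, beside 48.7% of all 15355 tested genes, with 25.2% of all genes higher and 23.6% lower. All 38 had a mean of at least 188 counts, and of all genes averaging at least 50 counts 57.3% were called, so the share called among repair genes was close to the background. The changes were also small, with a median absolute log2 fold change of 0.15 beside 0.24 over all tested genes. None of the 38 passed a fold change of 2, which 5.95% of all genes did, and RBBP8 alone passed a fold change of 1.5, which 13.8% of all genes did. The tested genes ran down to a mean of 6.17 counts, and these sizes were not compared with genes of matched counts. The median log2 fold change was 0.03, within a range from -0.32 for POLQ to 0.61 for RBBP8, and the median of all tested genes was 0.00. The summed level of the 39 genes ran from 2813 to 2859 CPM in control and from 2802 to 2827 CPM in shMUC1 libraries, and the ranges overlapped under TMM scaling. As a share of all counts without that scaling it was 0.286% ± 0.00325 in control and 0.279% ± 0.00262 in shMUC1 libraries (SD, n = 3 each), ranges that did not overlap (exact two-sided permutation p = 0.1, the smallest 3 against 3 libraries allow). For 21 of the 38 genes (55.3%, 13 higher and 8 lower) the CPM ranges of the groups lay apart, beside 54.8% of all tested genes, 28.1% higher and 26.8% lower.

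**Figure D1:**
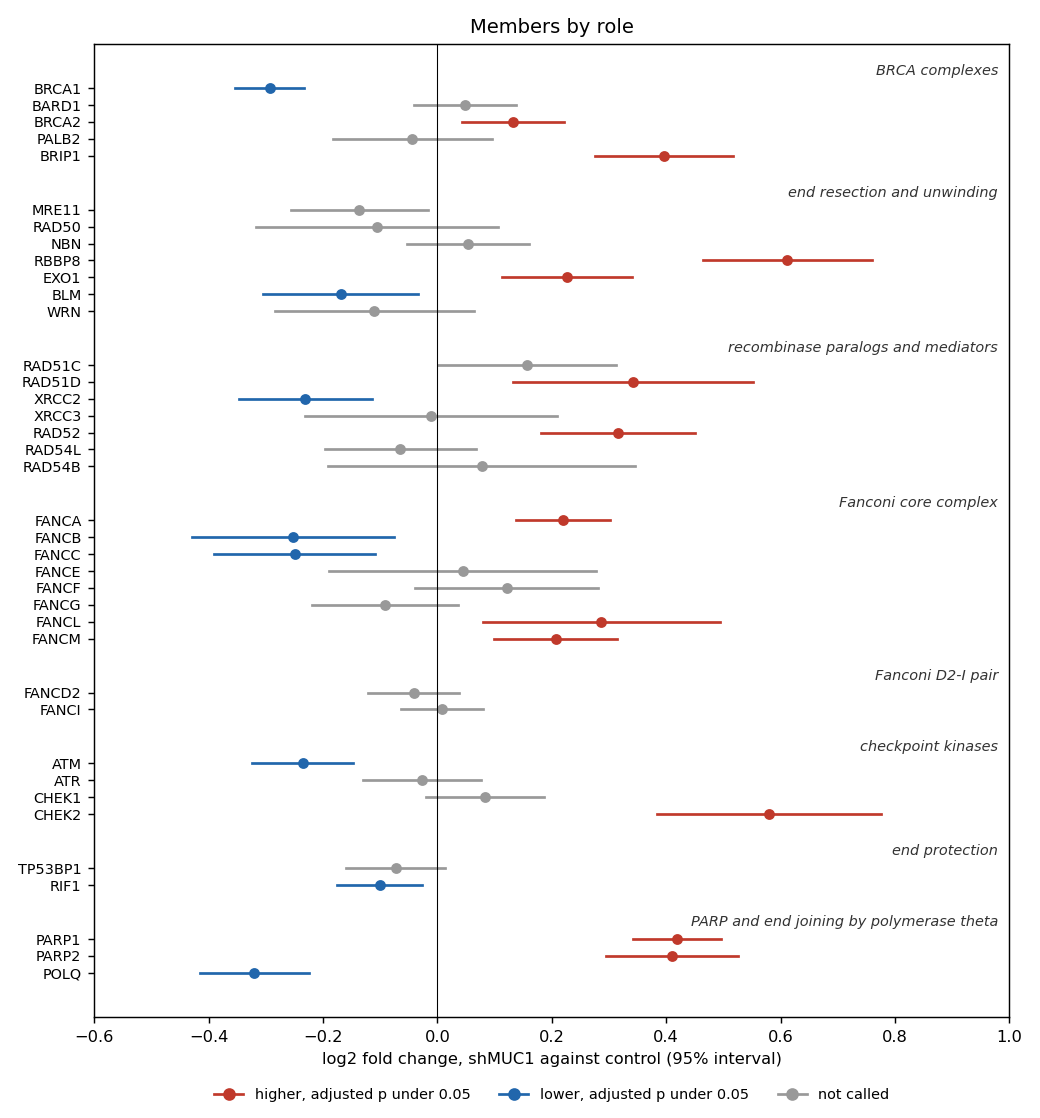
Log2 fold change of shMUC1 against control cells for the 38 tested repair genes, grouped by role, with 95% confidence intervals from edgeR's quasi-likelihood fit. Points in red (12 genes) and blue (8 genes) passed an adjusted p under 0.05, and the largest rise and fall are RBBP8 at 0.61 and POLQ at -0.32.

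The promoters were searched for short words, namely E2F words, which cell cycle regulators bind, the word of the cell cycle homology region, and CCAAT. The windows holding an E2F word are printed because some of the genes with such a word rose and others fell. RefSeq start sites (GRCh38.p14) were found for 35 of the 39 genes, and the window from 250 bases before to 50 bases after each start was searched on both strands for TTTCCCGC, TTTCGCGC, TTTGCCGC and TTTGGCGC. Of the 35 genes, 5 (14.3%) held at least 1 of these words, beside 6.47% of 11187 tested genes with a window, and 3.31% of all 35116 windows held one. EXO1 and FANCA were higher, XRCC2 and FANCC were lower, and FANCD2 did not pass the test. Of all tested genes with such a word, 26.7% were higher and 24.3% lower. Each sequence is read on the strand of its gene, and capitals mark the word or its reverse complement.
EXO1, chr1:241848197-241848226, plus strand: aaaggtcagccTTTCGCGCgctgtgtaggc
FANCA, chr16:89816801-89816830, minus strand: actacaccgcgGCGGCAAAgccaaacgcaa
FANCC, chr9:95317737-95317766, minus strand: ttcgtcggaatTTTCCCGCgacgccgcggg
FANCC, chr9:95317863-95317892, minus strand: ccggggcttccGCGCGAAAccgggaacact
FANCD2, chr3:10026424-10026453, plus strand: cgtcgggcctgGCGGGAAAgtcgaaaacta
XRCC2, chr7:152676102-152676131, minus strand: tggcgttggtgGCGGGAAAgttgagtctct
FANCD2 and XRCC2 hold the same 8 capital letters. XRCC2 was at 57.1, 51.0 and 53.6 CPM in control and 45.6, 46.2 and 45.9 CPM in shMUC1 libraries, and FANCD2 overlapped between the groups, but the difference between their changes was not tested. The word TTTGAA of the cell cycle homology region stood in the windows of 5 genes (14.3%, beside 13.8% of tested genes), of which BRIP1 was higher and FANCC, ATM, RIF1 and POLQ were lower. Of all tested genes with TTTGAA in a window, 27.2% were higher and 26.6% lower. CCAAT stood in 15 of the 35 genes (42.9%, beside 42.6%), with 4 higher, 4 lower and 7 not called. Of all tested genes with CCAAT in a window, 27.7% were higher and 23.9% lower. A match describes letters in the window and no binding was measured.

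BRCA1 and its partners did not move together. BRCA1 (chr17:43044295-43170245, minus strand, GRCh38), the ubiquitin ligase that promotes end resection and loading of the recombinase, was at 590, 621 and 611 CPM in control and 498, 497 and 491 CPM in shMUC1 libraries. The groups did not overlap, and BRCA1 fell by 0.29 on the log2 scale (SE 0.0299, adjusted p = 1.65e-10). BARD1, which pairs with BRCA1 to form the ligase, was at 94.1, 87.7 and 88.9 CPM in control and 94.0, 91.8 and 93.9 CPM in shMUC1 libraries, with a log2 fold change of 0.05 and a 95% interval from -0.041 to 0.137.

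BRCA2, which places the recombinase on resected DNA, was at 89.7, 97.3 and 90.0 CPM in control and 102, 101 and 100 CPM in shMUC1 libraries. It rose by 0.13 on the log2 scale (SE 0.0437, adjusted p = 0.0115), and the call was lost without control replicate 1 or control replicate 3. PALB2, the bridge between BRCA1 and BRCA2, overlapped between the groups with a log2 fold change of -0.04 (adjusted p = 0.635). BRIP1, the helicase that binds BRCA1, stood at 40.3, 38.8 and 39.1 CPM in control and 53.8, 53.0 and 48.5 CPM in shMUC1 libraries. It rose by 0.40 (SE 0.0594, adjusted p = 6.33e-07), so of the 5 genes of the BRCA complexes 2 rose, 1 fell and 2 did not pass the test. That is 60% called, beside 48.7% of all tested genes.

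The proportions of transcripts whose proteins work together were compared next. BRCA1 had 6.74 ± 0.423 counts for each BARD1 count in control libraries (SD, n = 3) and 5.31 ± 0.0944 in shMUC1 libraries (SD, n = 3). For each BRCA2 count it had 6.58 ± 0.204 in control and 4.90 ± 0.0191 in shMUC1 libraries (SD, n = 3 each), and neither ratio overlapped between the groups. Each gave p = 0.1 in an exact two-sided permutation test, the smallest that 3 against 3 libraries allow, and 0.167 after Benjamini-Hochberg adjustment over the 5 ratios compared, which were picked after the genes' values had been seen. By contrast, the ratio of PARP1 to PARP2 was 3.65 ± 0.119 in control and 3.67 ± 0.262 in shMUC1 libraries (SD, n = 3 each, exact permutation p = 0.9).

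Among the genes of end resection and unwinding, the largest change of all 38 was in RBBP8 (chr18:22798261-23026488, plus strand, GRCh38). RBBP8 encodes CtIP, which activates the MRE11 nuclease to start resection and is itself recruited by BRCA1. Its level was 28.0, 24.0 and 29.9 CPM in control and 40.1, 42.4 and 42.8 CPM in shMUC1 libraries. All shMUC1 libraries lay above all control libraries, with a log2 fold change of 0.61 (SE 0.0727, adjusted p = 5.75e-09), or 1.53-fold. EXO1, the exonuclease that extends resection, was at 44.8, 45.7 and 46.0 CPM in control and 51.7, 52.8 and 55.3 CPM in shMUC1 libraries and rose by 0.23 on the log2 scale (adjusted p = 9.41e-04).

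The complex that RBBP8 works with was not called. MRE11, its nuclease, had a log2 fold change of -0.14 (adjusted p = 0.0531), RAD50, its ATPase, one of -0.11 (adjusted p = 0.425) and NBN, the subunit that recruits ATM, one of 0.05 (adjusted p = 0.425). For MRE11 the call depended on the setting, since it was called lower with DESeq2 size factors, library totals only, a minimum mean of 50 counts and halved counts, and without control replicate 1 or shMUC1 replicate 1. BLM, a helicase of long-range resection and of joint molecule dissolution, was at 36.2, 39.6 and 40.6 CPM in control and 36.5, 33.1 and 33.9 CPM in shMUC1 libraries. Its log2 fold change was -0.17 (adjusted p = 0.0345), but the groups overlapped and the call was lost without the low-count filter and when any of 4 libraries was left out, namely control replicates 2 and 3 and shMUC1 replicates 2 and 3. WRN, a related helicase, did not pass the test (-0.11, adjusted p = 0.302).

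The recombinase paralogs and mediators also split. RAD51D and XRCC2 sit in the same paralog complex, which stabilises the recombinase filament, and their transcripts moved in opposite directions. RAD51D was at 13.0, 10.5 and 12.2 CPM in control and 15.5, 14.7 and 15.1 CPM in shMUC1 libraries, a rise of 0.34 on the log2 scale (SE 0.104, adjusted p = 0.00606) whose call was lost without control replicate 2. XRCC2, whose values are given with its promoter, fell by 0.23 (SE 0.0572, adjusted p = 9.36e-04). RAD51C, another subunit, had a log2 fold change of 0.16 (adjusted p = 0.091) and was called higher without shMUC1 replicate 2, while XRCC3 stood at -0.01 (adjusted p = 0.944).

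RAD51B, the remaining subunit, had 2, 0 and 0 counts in control and 3, 1 and 0 counts in shMUC1 libraries. These lie at or below a floor of 3 counts, which equals between 0.108 and 0.161 CPM by library, so RAD51B was not tested and a difference was not detectable at this depth. RAD52, which anneals single strands and supports repair in cells that lack BRCA proteins, was at 30.3, 32.0 and 31.5 CPM in control and 36.6, 40.4 and 39.9 CPM in shMUC1 libraries. The groups did not overlap and RAD52 rose by 0.32 on the log2 scale (SE 0.0666, adjusted p = 1.41e-04). The motor proteins RAD54L and RAD54B, which remodel the filament on duplex DNA, gave log2 fold changes of -0.06 and 0.08 (adjusted p = 0.436 and 0.665).

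In the Fanconi pathway, the core complex changed in part and the pair of proteins it modifies was not called. Of the 8 core complex and associated genes, 3 rose, 2 fell and 3 did not pass the test. That is 62.5% called, beside 48.7% of all tested genes. FANCA was at 112, 113 and 119 CPM in control and 130, 134 and 136 CPM in shMUC1 libraries, a rise of 0.22 on the log2 scale (SE 0.0402, adjusted p = 1.89e-05). FANCM, the translocase that brings the complex to DNA, was at 59.0, 57.6 and 54.2 CPM in control and 62.9, 67.1 and 67.1 CPM in shMUC1 libraries and rose by 0.21 (adjusted p = 0.00126). FANCL, the ubiquitin ligase of the complex, was at 12.5, 11.5 and 11.2 CPM in control and 14.6, 14.4 and 13.9 CPM in shMUC1 libraries and rose by 0.29 (adjusted p = 0.019), a call lost without control replicate 2, control replicate 3 or shMUC1 replicate 1.

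FANCB, the binding partner of FANCL, went the other way. It was at 20.6, 21.4 and 22.6 CPM in control and 16.7, 18.2 and 19.5 CPM in shMUC1 libraries and fell by 0.25 on the log2 scale (adjusted p = 0.0154), a call lost without control replicate 3 or shMUC1 replicate 1. FANCC was at 34.5, 34.6 and 36.0 CPM in control and 28.6, 28.4 and 31.9 CPM in shMUC1 libraries and fell by 0.25 (adjusted p = 0.00291). FANCE, FANCF and FANCG had log2 fold changes of 0.04, 0.12 and -0.09 and did not pass the test (adjusted p = 0.781, 0.215 and 0.239).

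FANCD2 and FANCI form the clamp that the core complex ubiquitinates on damaged DNA, and their RNA level is no measure of that modification. FANCD2 was at 169, 162 and 161 CPM in control and 152, 160 and 166 CPM in shMUC1 libraries. The groups overlapped, and the log2 fold change of -0.04 (adjusted p = 0.400) had a 95% interval from -0.121 to 0.037. FANCI was at 189, 195 and 188 CPM in control and 194, 190 and 190 CPM in shMUC1 libraries, with a log2 fold change of 0.01 (adjusted p = 0.862) and an interval from -0.063 to 0.080, and the sign of so small a value turned under some alternatives. The ratio of FANCD2 to FANCI counts was 0.861 ± 0.0312 in control and 0.833 ± 0.0468 in shMUC1 libraries (SD, n = 3 each, exact permutation p = 0.5).

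**Figure D2:**
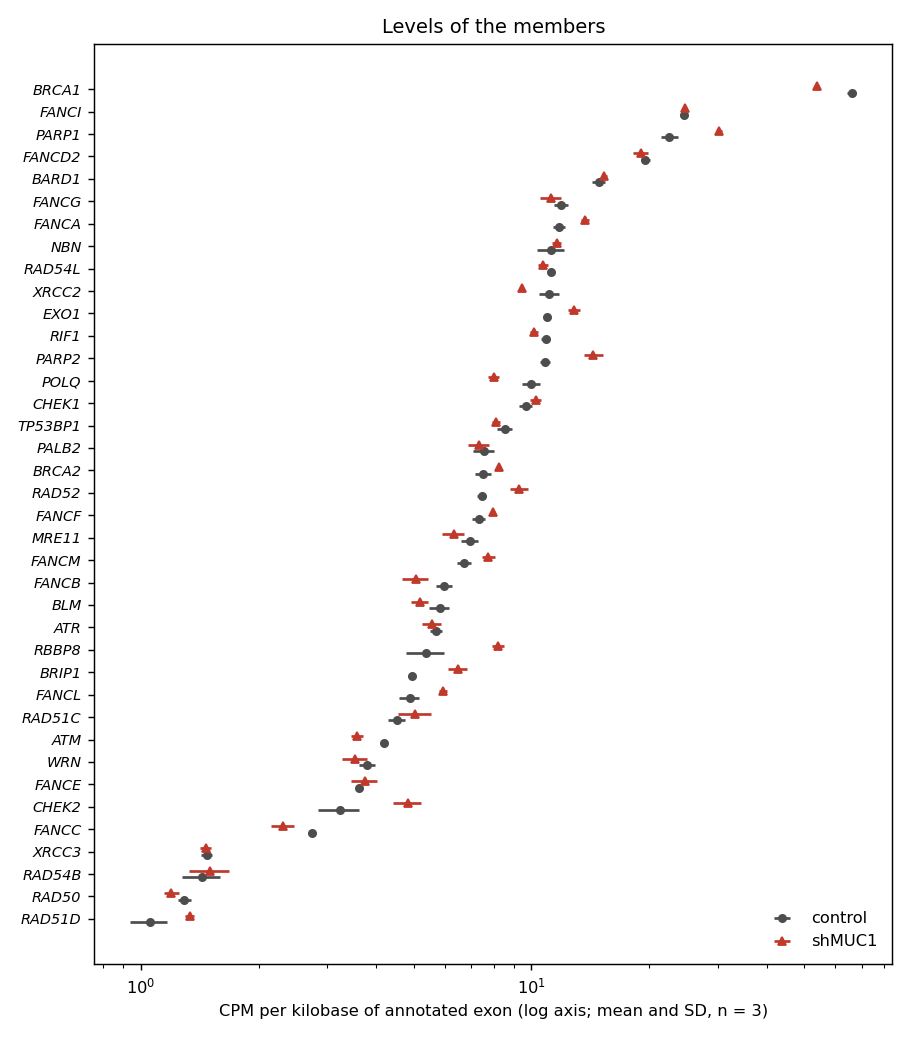
Level of the 38 tested repair genes in control and shMUC1 libraries, as CPM per kilobase of annotated exon sequence on a log axis, points being means of 3 libraries and bars the SD. BRCA1 is highest in both groups, at 66.1 and 53.9 CPM per kilobase, and PARP1 passes FANCI between control and shMUC1 cells.

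Of the 4 checkpoint kinases CHEK2 rose, ATM fell, and ATR and CHEK1 did not pass the test. That is 50% called, beside 48.7% of all tested genes. ATM, the kinase activated by double-strand breaks, was at 99.6, 101 and 101 CPM in control and 82.4, 86.0 and 88.7 CPM in shMUC1 libraries. The groups did not overlap and ATM fell by 0.24 on the log2 scale (SE 0.0437, adjusted p = 2.25e-05). CHEK2 (chr22:28687743-28742422, minus strand, GRCh38), the kinase that ATM activates, was at 14.9, 12.6 and 16.0 CPM in control and 23.4, 19.9 and 21.6 CPM in shMUC1 libraries. It rose by 0.58 (SE 0.0963, adjusted p = 3.94e-06), or 1.49-fold, the second largest change of the 38 genes.

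ATR, which answers to stalled replication forks, had a log2 fold change of -0.03 (adjusted p = 0.689). CHEK1, its target kinase, was at 60.6, 63.7 and 65.7 CPM in control and 65.0, 68.9 and 67.7 CPM in shMUC1 libraries, so that 1 shMUC1 library lay within the control range. Its log2 fold change was 0.08 (adjusted p = 0.181), with a 95% interval from -0.020 to 0.186. CHEK2 had 0.229 ± 0.0268 counts for each CHEK1 count in control and 0.323 ± 0.0358 in shMUC1 libraries (SD, n = 3 each). These groups did not overlap, and the exact permutation test gave p = 0.1 (0.167 after adjustment over the 5 ratios).

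TP53BP1 and RIF1 shield broken ends from resection, and their loss is known to restore recombination in BRCA1-deficient cells. RIF1 was at 191, 200 and 201 CPM in control and 187, 179 and 186 CPM in shMUC1 libraries. It fell by 0.10 on the log2 scale (SE 0.0363, adjusted p = 0.0199), a call lost without the low-count filter, without control replicate 2 and without shMUC1 replicate 2. TP53BP1 was at 106, 111 and 116 CPM in control and 107, 103 and 107 CPM in shMUC1 libraries, and its log2 fold change of -0.07 did not pass the test (adjusted p = 0.157).

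All 3 genes of PARP and polymerase theta end joining passed the test. The share called was 48.7% over all tested genes and 57.3% over those averaging at least 50 counts. PARP1 (chr1:226360691-226408079, minus strand, GRCh38), the main target of PARP inhibitors, was at 163, 153 and 169 CPM in control and 218, 219 and 212 CPM in shMUC1 libraries. Its log2 fold change of 0.42 (SE 0.038, adjusted p = 9.48e-12) had the smallest p of the 38 genes. PARP2, which shares its catalytic fold and is hit by the same inhibitors, was at 45.4, 42.9 and 44.7 CPM in control and 59.6, 55.4 and 61.9 CPM in shMUC1 libraries and rose by 0.41 (SE 0.057, adjusted p = 1.49e-07).

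POLQ (chr3:121431427-121546641, minus strand, GRCh38), the polymerase that joins resected ends through short homologies, fell instead. It was at 88.9, 98.5 and 94.1 CPM in control and 72.6, 76.0 and 77.3 CPM in shMUC1 libraries, a log2 fold change of -0.32 (SE 0.0472, adjusted p = 4.77e-07). No shMUC1 library reached the lowest control library, and POLQ had the largest fall of the 38 genes.

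Per length, BRCA1 was the most abundant of the 38 tested transcripts in both groups. BRCA1 stood at 66.1 ± 1.74 CPM per kilobase of exon in control and 53.9 ± 0.446 in shMUC1 libraries (SD, n = 3 each), above every other gene in all libraries. In control libraries FANCI followed at 24.5, then PARP1 at 22.6, FANCD2 at 19.6 and BARD1 at 14.9 CPM per kilobase, and each of these was above its neighbour in all libraries. In shMUC1 libraries PARP1, at 30.1, lay above FANCI, at 24.7, and PARP2 moved from rank 13 at 10.8 to rank 6 at 14.4 CPM per kilobase. RAD51D at 1.05, RAD50 at 1.29, RAD54B at 1.43 and XRCC3 at 1.47 CPM per kilobase were the lowest tested genes in control libraries. These genes share sequence or exon positions with other genes, as given below, and the part of this in their low levels was not tested. Most neighbours in the order could not be told apart, with overlapping libraries in 24 of 37 neighbouring pairs in control and 22 of 37 in shMUC1 cells. Since the line is BRCA1-mutant, the level of BRCA1 RNA is no measure of functional protein.

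Some of these counts are uncertain because the annotation (GENCODE release 29) places other genes on the same sequence. CHEK2 shared 14.6% of its exon 31-base words with other genes, chiefly its pseudogenes, FANCD2 12.4% with FANCD2P2 among others, MRE11 9.43% with MRE11P1 among others, and PARP1 4.16% with PARP1P1 and PARP1P2. RAD51D shared 14.5%, chiefly with its read-through RAD51L3-RFFL, while RAD50 shared 78.6%, chiefly with AC116366.3, and RAD54B 57.6% with FSBP. On the opposite strand, exons of other genes covered 76.7% of XRCC3 exons, 28.7% of TP53BP1, 25.1% of RAD54L, 23.6% of FANCA and 19.7% of FANCL. The library kit keeps strand, but the strand setting of the counting is not given in the sources used here.

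The 3' UTRs (the untranslated ends of mRNAs) were read for ATCAGTA, a 7-base word known from an earlier look at these same fold changes, so what follows describes and does not test it. The word stood on the sense strand of at least 1 annotated 3' UTR of 6 of the 39 genes (15.4%, beside 12.8% of 13023 tested genes with a 3' UTR). They were ATM and RIF1, which fell, and RAD50, ATR, CHEK1 and TP53BP1, which did not pass the test. Their median log2 fold change was -0.09 beside 0.05 for the repair genes without the word, and over all tested genes the medians were -0.12 with and 0.03 without it. The sites of the kinases and of RIF1 are printed from GRCh38 on the strand of the gene, with the word in capitals. Those of RAD50 and TP53BP1 are not printed, and likeness around the word was not tested.
ATM, chr11:108368769-108368798, plus strand: gtgtttacctaATCAGTAggttcacaaact
RIF1, chr2:151475891-151475920, plus strand: aatactgaaatATCAGTAtcgacggtggaa
ATR, chr3:142449761-142449790, minus strand: cgagcctccaaATCAGTAtcacaagctaac
CHEK1, chr11:125656546-125656575, plus strand: ttaagaattgaATCAGTAtaaattctcaaa
These sites were in 2 of 8 annotated coding transcripts of ATM, 1 of 5 of RIF1, 1 of 2 of ATR and 3 of 8 of CHEK1, and gene-level counts do not show which transcripts the cells made. BRCA1 and POLQ, which fell the most, held no such word.

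Of 60 further recombination and Fanconi genes, all tested, 13 rose, 17 fell and 30 did not pass the test, so that 50% were called beside 48.7% of all tested genes, with a median log2 fold change of -0.06. Among the rises were RMI2, a partner of BLM in the dissolution of joint molecules, at 0.76, SFR1, which assists the recombinase, at 0.55, and RPA3, a subunit of the single-strand binding protein, at 0.48 on the log2 scale. GEN1, a nuclease that cuts Holliday junctions, fell by 0.68 on the log2 scale, from 80.5 ± 4.77 CPM in control to 50.1 ± 2.48 CPM in shMUC1 libraries (SD, n = 3 each). TONSL and MMS22L, which form a complex that promotes recombination at stalled forks, fell by 0.51 and 0.44. Of 11 genes of non-homologous end joining, 1 rose and 0 fell at an adjusted p under 0.05 in edgeR, with a median log2 fold change of 0.05 and 9.09% called beside the same 48.7%. None fell at an unadjusted p under 0.05 or with DESeq2 or limma-voom (0 in each), and 1 was called lower among genes averaging at least 50 counts. The gene that rose was the scaffold NHEJ1, at 0.25.

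**Figure D3:**
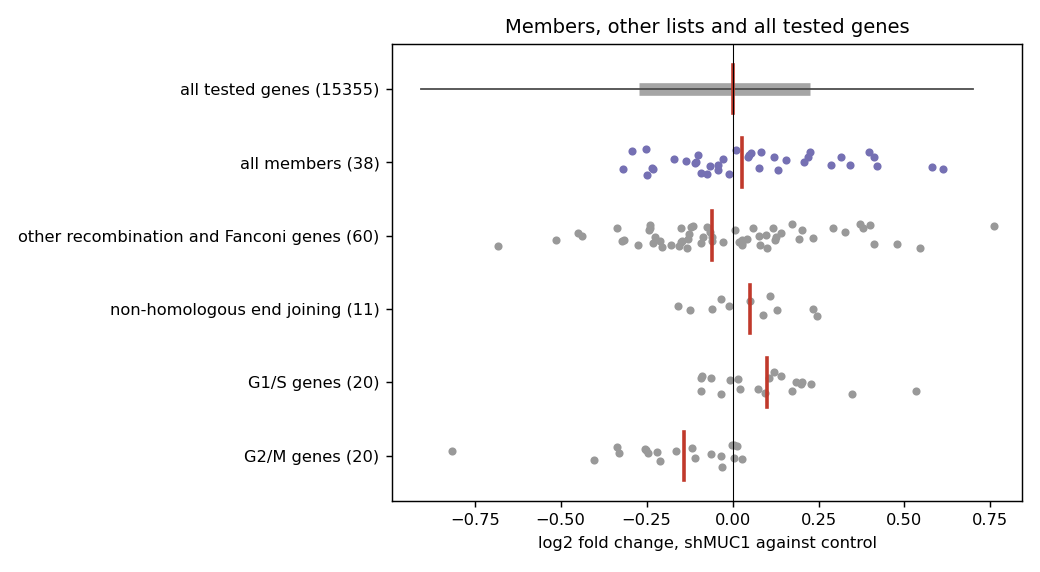
Log2 fold change of each tested gene in the repair genes and 4 other lists, with the list median as a bar, beside all 15355 tested genes drawn as their median, quartiles and 5th to 95th percentiles. The list medians lie between -0.14 for G2/M genes and 0.10 for G1/S genes.

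Many repair genes are made mainly in S and G2 phase, so cell cycle genes are given beside them. Of 20 G1/S genes 10 rose and 1 fell, with a median log2 fold change of 0.10, and of 20 G2/M genes 0 rose and 10 fell in edgeR, with a median of -0.14. In all, 55.0% of the G1/S and 50% of the G2/M genes were called, beside 48.7% of all tested genes (25.2% higher and 23.6% lower). The number of G2/M genes that rose was also 0 at an unadjusted p under 0.05, with DESeq2 and with limma-voom. The summed level of the G1/S genes ran from 3383 to 3442 CPM in control and from 3450 to 3492 CPM in shMUC1 libraries, and that of the G2/M genes from 4753 to 4901 CPM and from 4223 to 4481 CPM. The replication gene GINS1 rose by 0.53, the licensing factor CDT1 by 0.35 and the cyclin CCNE1 by 0.23 on the log2 scale, and RRM2, a subunit of ribonucleotide reductase, fell by 0.09. The mitotic genes CENPF, BUB1 and PLK1 fell by 0.40, 0.34 and 0.33. In bulk libraries, fewer cells of a type or phase and less RNA per cell cannot be told apart, and the part of the cell cycle in the changes of repair genes was not tested.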

How the data were processed

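RNA was sequenced from 3 control and 3 shMUC1 cultures. Raw counts by gene symbol were deposited by the authors, 1 column per library. Per the submitters' processing notes, CASAVA 1.8.2, STAR 2.7.9a, featureCounts, DESeq2 1.24.0 and GRCh38.p7 were used. The annotation release is not given in the sources used here. Counts were tested with edgeR 4.0.16 (R 4.3.3; TMM scaling, filterByExpr, group as the only term), two-sided, with Benjamini-Hochberg adjustment over 15355 genes. CPM used TMM-scaled library sizes. The 95% intervals of fold changes include the spread between libraries, and floors cover counting error only. Alternatives were DESeq2 1.42.0, limma-voom (limma 3.58.1), other scalings and filters, a replicate block, each library left out and halved counts, since 69.6% (control) and 70.2% (shMUC1) of values from 1 to 20 were even.

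All 39 genes were reported. Per-library values were fixed for called genes with an absolute log2 fold change of at least 0.5 and for BRCA1, BRCA2, FANCD2, CHEK1, PARP1 and MUC1; others were added after values were seen. From each further list, up to 3 rises and 3 falls were named, from those called, averaging at least 100 counts, whose groups did not overlap. A gene of the end joining list is not reported here and was left out of that list's counts. Genes and lists were chosen with earlier results of these data known. Nothing beyond triplicate culture states independence, so p-values may reflect technical spread. Replicate numbers did not pair libraries (correlations -0.0359 to 0.0167).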

Additional observations from a re-analysis of the deposited data

How the results depend on the processing

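Of the 20 called repair genes, 14 kept their direction and call under every alternative, and none turned direction. Among 280 alternative values 16 lost the call. The replicate block, used as a paired fit although the numbers do not pair the libraries, left 12 higher and 8 lower and changed no call of a repair gene. Leaving out 1 library gave 10 to 13 higher and 6 to 9 lower. With a fold change over 1.5, 1 gene was higher and 0 lower, and with a fold change over 2, 0 and 0. The median log2 fold change was 0.055 without the low-count filter, where RAD51B is added. G1/S genes lower numbered 2 with library totals only and 2 with a minimum mean of 50 counts, and 0 (without control replicate 1, where RRM2 lost its call) to 1 with a library left out. End joining genes lower numbered 1 with a mean of at least 50 counts. Values near 0 turned sign in genes that were not called. FANCI was -0.0132 with library totals only, -0.0141 with that minimum, and -0.0128 to 0.0256 with a library left out. With a library left out PALB2 ran from -0.0864 to 0.0111, XRCC3 from -0.0310 to 0.0107, FANCE from -0.0153 to 0.105, RAD54B from -0.0212 to 0.170 and ATR from -0.0591 to 0.0174. MUC1 ran from -1.02 to -0.75 over all alternatives. Depth limits the least abundant genes, RAD51B above all.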

Other observations

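Several repair genes have an annotated start close to that of a gene read in the other direction. The start was taken as the outermost annotated end of each gene, and 16 repair genes had such a protein-coding neighbour within 1000 bases. These starts can lie away from the RefSeq starts used for the promoter words, so a shared promoter region was not shown. FANCB, which fell by 0.25 on the log2 scale, starts 372 bases from MOSPD2, which had a log2 fold change of -1.14 (adjusted p = 2.57e-16 by edgeR's quasi-likelihood test). BRCA1 fell by 0.29, while NBR1, which starts 236 bases from the outermost annotated start of BRCA1, rose by 0.14 (adjusted p = 0.0163). That outermost start is at chr17:43170245, whereas the RefSeq window of BRCA1 searched for promoter words has its lower end at chr17:43125315. This pair is therefore not shown to share a promoter region. CHEK2 rose by 0.58, and HSCB, 391 bases away, had a log2 fold change of -0.05 (adjusted p = 0.922). ATM fell by 0.24, and NPAT, 158 bases away, had one of -0.09 (adjusted p = 0.163). RAD52 and ERC1, 456 bases apart, rose by 0.32 and 0.11 (adjusted p = 0.0310 for ERC1). MRE11 was not called, and ANKRD49, 279 bases away, rose by 0.35 (adjusted p = 0.00470). Whether neighbours differed in their response was not tested.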
